A study of Danio rerio with 18 samples.

Results

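The enhancers of the adult zebrafish heart were compared with those of the intestine. Both organs came from fish aged 1 year and were prepared in the same way. The comparison takes every super-enhancer and every typical enhancer deposited for these organs, 14212 heart regions and 15042 intestine regions. These 29254 regions are part of the 66306 regions in all lists of the series. Regions were matched by overlap on the same chromosome, with no use of their signal.

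The fish were adult males of the AB strain, labelled wild type, and no allele or treatment is given. Each biological replicate pooled 20 hearts or 5 intestines, which were cross-linked in 1% formaldehyde and sheared to 200 bp fragments. Each organ had 2 chromatin immunoprecipitation (ChIP) libraries, made with the Abcam H3K27ac antibody ab4729, and 2 libraries of input DNA. The series also holds 10-month hearts (1 ChIP library), brains and testes (2 each), from adult wild-type AB males with 175 bp fragments, used below only for the positions of their enhancers. Unless 1 bp is named, overlap with these lists means at least 50% of the shorter of the pair. A smaller overlap with them counts as none. The lists differ in extent, with 132.7 Mb in the 10-month heart, 171.1 Mb in the brain and 60.5 Mb in the testis. A longer list has more room to be met, so shares found in different lists are not like measures. How far extent sets these shares was not tested. Whole organs mix muscle, epithelial, vascular, nerve and blood cells, so fewer cells carrying the mark and less mark per cell cannot be told apart. The organ labels were not checked against marker genes, because no gene annotation of build Zv9 was used.

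H3K27ac, acetylation of lysine 27 on histone H3, is laid down by the acetyltransferases p300 and CBP and marks active promoters and enhancers. Enhancers bind transcription factors and raise transcription of genes that can lie far away. Many act in one cell type, whereas promoter-like sites tend to be acetylated in most tissues. A super-enhancer is a long cluster of neighbouring enhancers that together carry much H3K27ac, often near genes that set cell identity. A typical enhancer is any remaining region, either a single locus or a shorter or weaker cluster.

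There is 1 super-enhancer and 1 typical-enhancer list per organ and no value per replicate. No test between organs could be made, and the values below describe these lists. The deposited signal is a total over the region, and dividing it by length gave the signal per base pair (bp) used here. For a cluster, the length includes the stretches between its loci, so these enter the signal per bp. Intervals are 95% intervals over regions (exact Clopper-Pearson for shares, distribution-free for medians). They treat regions as independent and cover counting error, not the difference between fish. All coordinates are Zv9, counted from 1. Depth is unknown, since no read counts were used.

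The heart list covered 212.8 Mb and the intestine list 197.0 Mb. They had 125.2 Mb in common, which is 58.8% of the heart's listed base pairs and 63.5% of the intestine's. Another 87.6 Mb were listed in the heart only and 71.8 Mb in the intestine only. These lengths count the stretches between the loci of a cluster, whether or not those carry the mark. A region was called shared when it overlapped a region of the other organ by at least 50% of the shorter of the pair. It was called private when it overlapped none by even 1 bp, and touching in between. By this rule 9538 heart regions (67.1%, interval 66.3% to 67.9%) and 10023 intestine regions (66.6%, interval 65.9% to 67.4%) were shared. Private regions numbered 4350 in the heart (30.6%) and 4676 in the intestine (31.1%). Touching regions numbered 324 in the heart and 343 in the intestine, 2.28% of each list. The intervals of the private shares, 29.9% to 31.4% in the heart and 30.3% to 31.8% in the intestine, overlapped.

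Private regions were short. Their median length was 2.399 kb in the heart and 1.999 kb in the intestine, against 7.799 kb for shared heart regions and 7.599 kb for shared intestine regions. Most private regions were a single locus, 76.0% in the heart and 77.6% in the intestine. Private regions therefore held 10.7% of heart and 11.2% of intestine base pairs, far less than their share of the count. Under 2 kb, 44.0% of 4302 heart regions and 48.1% of 5028 intestine regions were private. Between 5 and 20 kb the private share was 24.2% in the heart and 22.7% in the intestine. At 50 kb or longer it was 1.64% in the heart and 0.842% in the intestine, so almost every long cluster of either organ met an enhancer of the other. A longer region has more room to meet one, and how much of the trend this accounts for was not tested.

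**Figure D1:**
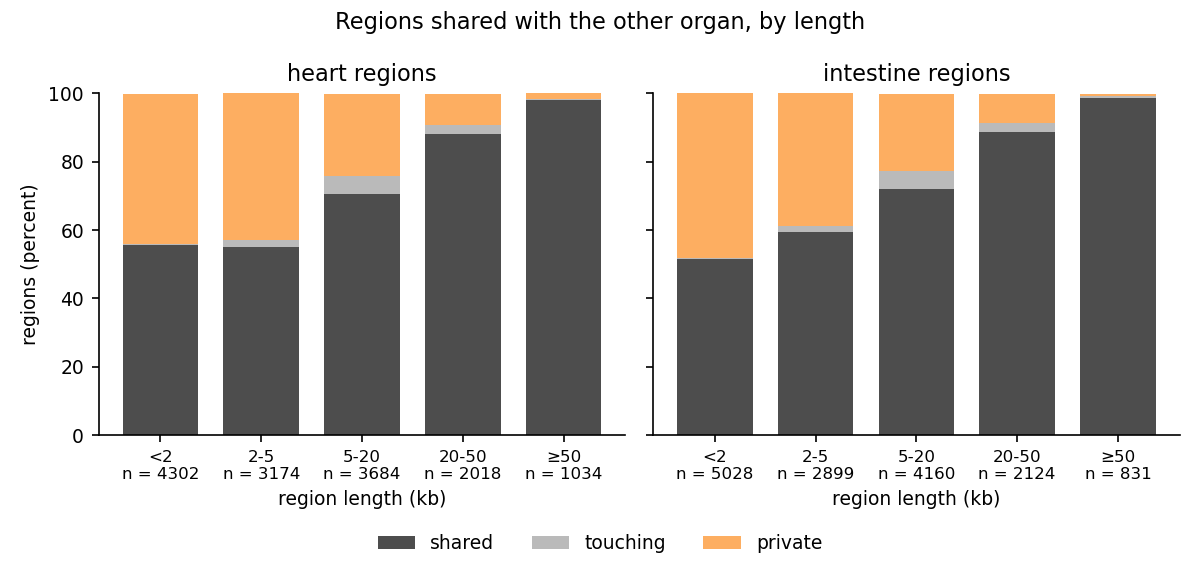
Share of heart regions (left) and intestine regions (right) that were shared, touching or private, in percent, by region length in kb, with the number of regions under each bar. The private share was 44.0% (heart) and 48.1% (intestine) in the shortest class, and 1.64% (heart) and 0.842% (intestine) in the longest.

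Private regions also carried less mark than shared regions of similar length. Among heart regions of 2 to 5 kb the median signal per bp was 0.437 in private and 0.539 in shared ones. Among intestine regions of that length it was 0.495 in private and 0.615 in shared ones. In the 20 to 50 kb class the medians were 0.350 (private) and 0.406 (shared) in the heart, and 0.396 (private) and 0.471 (shared) in the intestine. The middle ranges of private and shared regions overlapped in each of these classes. For heart regions of 2 to 5 kb, for example, the quartiles were 0.399 to 0.484 in private and 0.453 to 0.697 in shared ones.

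The private share of strong regions depended on where strong begins, mainly in the intestine. Regions with at least 2 times their own list's median signal per bp numbered 681 in the heart (4.79% of its list) and 1489 in the intestine (9.90%). Of these, 29 heart regions (4.26%) and 181 intestine regions (12.2%) were private. At 3 times the median, 5 of 142 heart regions (3.52%) and 25 of 592 intestine regions (4.22%) were private. At 4 times it was 1 of 17 heart regions (5.88%) and 7 of 288 intestine regions (2.43%). The order of the shares turned round there, but the heart share rests on 1 region. The same multiple took unlike parts of the 2 lists, since 3 times the median took 0.999% of the heart list and 3.94% of the intestine list. At nearer parts, 2 times in the heart and 3 times in the intestine, the private shares were 4.26% and 4.22%. Of all regions, 30.6% in the heart and 31.1% in the intestine were private. Under 2 kb these were 44.0% (heart) and 48.1% (intestine). The regions at 2 times or more had median lengths of 1.399 kb (heart) and 1.599 kb (intestine). The highest signal per bp was 3.24 in the heart list and 6.46 in the intestine list, on scales that are not stated to be comparable.

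Super-enhancers were seldom private in either organ, but they often changed class. Of 850 heart super-enhancers, 521 (61.3%) overlapped an intestine super-enhancer and 321 (37.8%, interval 34.5% to 41.1%) overlapped typical enhancers only. Another 3 touched an intestine region and 5 (0.588%) met none. Of 1145 intestine super-enhancers, 534 (46.6%, interval 43.7% to 49.6%) overlapped a heart super-enhancer and 575 (50.2%, interval 47.3% to 53.2%) overlapped typical enhancers only. Another 8 touched a heart region and 28 (2.45%) met none. The lists differ in size, so each share is of its own list.

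Super-enhancers that changed class were covered less by the other organ than those super in both. A heart super-enhancer that was also super in the intestine had a median of 91.1% of its length inside intestine enhancers. One whose place held typical enhancers only had 55.7%. For intestine super-enhancers the same medians were 99.1% (super in the heart) and 63.4% (typical in the heart). In the heart the lengths of these 2 groups were alike, with medians of 75.4 kb and 75.6 kb. In the intestine those that were super in both organs were longer, 66.3 kb against 44.4 kb. Over the whole lists, 58.8% of heart and 63.5% of intestine base pairs lay inside enhancers of the other organ. The medians of the class changes lay near these shares, and those of regions super in both lay above them. The shares are of base pairs and the medians are over regions, so these are not like measures. In both lists the median super-enhancer was far longer than the median typical enhancer, so a super partner has more length to cover with. How much of the difference in cover comes from the class of the partner was not tested. The typical enhancers at places with a class change were also ranked in their own list. Ranked by deposited signal, the strongest intestine region there fell within the first 1145 of its list for 49 of the 321 heart super-enhancers (15.3%). The strongest heart region there fell within the first 850 of its list for 42 of the 575 intestine super-enhancers (7.30%). Over all typical enhancers taken singly, 1.35% in the intestine and 1.18% in the heart ranked that high in their list. The shares above are of places, each by its strongest region, so these are not like measures. Seen from the other side, 1063 heart typical enhancers (7.96%) lay in an intestine super-enhancer and 1104 intestine typical enhancers (7.94%) lay in a heart super-enhancer.

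**Figure D2:**
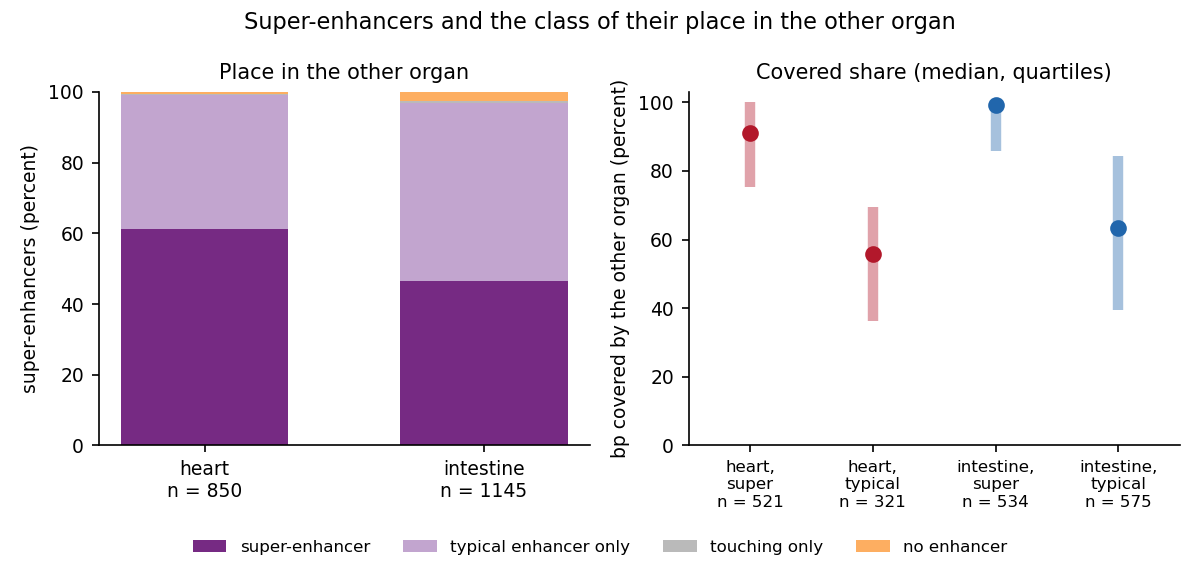
Left, share of heart and intestine super-enhancers in percent by what the other organ held at the same place. Right, percent of their base pairs covered by enhancers of the other organ, as medians (points) and quartiles (bars), for places that were super or typical there; the medians were 91.1% and 55.7% for heart and 99.1% and 63.4% for intestine.

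The deposited signal alone did not divide the classes. In the heart, 1187 typical enhancers (8.88%) carried at least the signal of the weakest super-enhancer. Their median length was 42.2 kb and their median signal per bp was 0.408. In the intestine 1016 typical enhancers (7.31%) did so, with medians of 38.1 kb and 0.469. Conversely, 158 heart super-enhancers (18.6%) and 187 intestine super-enhancers (16.3%) ranked below the number of super-enhancers in their list. These had medians of 38.2 kb and 0.535 signal per bp in the heart, and of 21.6 kb and 0.892 in the intestine. In both organs these typical enhancers thus had less signal per bp, in the median, than these super-enhancers. A change of class is therefore not the same as a change of total signal. Single-locus super-enhancers numbered 28 in the heart (3.29%) and 87 in the intestine (7.60%).

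The strongest heart super-enhancer whose place held only typical enhancers in the intestine was chr18:22961801-23127199, which was 165 kb long, ranked 29 in the heart and had 0.605 signal per bp. Enhancers of the intestine covered 79.2% of it, in 2 regions, the stronger of which ranked 418. The next was chr17:38594801-38827399, ranked 36, with 45.3% covered by 5 intestine regions. The super-enhancer chr1:38633201-38825199, ranked 38, had 27.1% covered by 5 intestine regions, of which the strongest ranked 3822. The strongest such intestine super-enhancer was chr17:27035601-27199399, which was 164 kb long, ranked 30 in the intestine and had 0.603 signal per bp. Heart enhancers covered 58.7% of it, in 3 regions, the strongest of which ranked 657. Among the 5 strongest on the intestine side, chr7:21464401-21615799 had the least cover, 26.2% in 3 heart regions with a best rank of 2873.

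Some super-enhancers of one organ were broken into many regions in the other. One partner was found for 442 heart super-enhancers (52.0%) and for 785 intestine super-enhancers (68.6%). At least 5 partners were found for 45 heart super-enhancers (5.29%) and 20 intestine super-enhancers (1.75%). The heart super-enhancer chr11:45496401-45654399, joined from 23 loci over 158 kb, met 18 intestine regions with a median length of 5.60 kb, of which 1 was super. The heart super-enhancer chr15:19215401-19311399 (96.0 kb) met 17 intestine regions, all typical. The intestine super-enhancer chr13:24673001-24773199 (100.2 kb, 18 loci) met 16 heart regions, all typical, with a median length of 1.90 kb and a best heart rank of 5919. In such places the same stretch was listed as one long cluster in one organ and as scattered regions in the other.

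The 5 heart super-enhancers with no intestine enhancer lay on 3 chromosomes. The longest was chr16:46736001-47004599, which spanned 269 kb, joined 45 loci, ranked 14 in the heart and had 0.426 signal per bp. Intestine enhancers lay no nearer than 83.2 kb on its left and 141 kb on its right. The others were chr16:45279601-45390399 (111 kb, rank 269), chr2:591401-682999 (91.6 kb, rank 493), chr7:38756801-38822199 (65.4 kb, rank 583) and chr2:25384201-25432399 (48.2 kb, rank 801). All 5 overlapped an enhancer of the 10-month heart, 1 one of the brain and 4 one of the testis. Among the 842 shared heart super-enhancers these shares were 99.9% (10-month heart), 87.1% (brain) and 78.9% (testis).

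The 28 intestine super-enhancers with no heart enhancer were shorter and denser than those super in both organs. Their median length was 26.0 kb and their median signal per bp 1.03, against 66.3 kb and 0.640 for intestine super-enhancers that were also super in the heart. Their median rank was 1227. All intestine super-enhancers ranked below 1145, the number in the list, had medians of 21.6 kb and 0.892. The 5 private heart super-enhancers differed the other way, with 91.6 kb and 0.426 against 75.4 kb and 0.503 for those super in both. How far the class itself sets the density of short super-enhancers was not tested. The longest was chr3:29586401-29670799, which was 84.4 kb long, joined 13 loci, ranked 374 and had 0.484 signal per bp. Next came chr6:454401-533999 with 79.6 kb, rank 343 and 0.537 signal per bp. By at least 50% of the shorter region, 5 of the 28 overlapped an enhancer of the 10-month heart, 7 of the brain and 8 of the testis. To that extent 12 of the 28 overlapped none of these lists. Among the 1109 shared intestine super-enhancers the shares were 97.5% (10-month heart), 82.6% (brain) and 76.2% (testis). Part of the contrast in the 10-month heart is built in, because private and shared were themselves set by overlap with a heart list. None of the 5 longest overlapped an enhancer of the 10-month heart by at least 50% of the shorter region.

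The longest private typical enhancers had low signal per bp. The longest in the heart was chr23:23969401-24056799, with 87.4 kb, 10 loci and 0.344 signal per bp, higher than only 9.0% of heart regions. The longest in the intestine was chr13:45748201-45857599, with 109 kb, 13 loci and 0.387 signal per bp, higher than 13.1% of intestine regions. Long shared regions had low values too. At 50 kb or longer, with both classes together, shared regions had medians of 0.428 in the heart and 0.505 in the intestine. Private ones had 0.369 (heart) and 0.387 (intestine), and the whole lists 0.479 (heart) and 0.569 (intestine). How far length and class set these values was not tested.

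Signal was compared at 4335 pairs, in which a heart and an intestine region each overlapped the other by at least 50% of its length. They hold 30.5% of heart and 28.8% of intestine regions. The signal per bp in the heart was 0.808 times that in the intestine in the median pair, a log2 ratio of -0.31. No scaling between the lists is stated, so this offset cannot be read as a difference between organs, and every ratio below is centred on it. A positive centred log2 ratio means higher in the heart relative to the other pairs.

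Across all pairs the organs ranked regions in a similar order, with a lower rank correlation among long ones, whose signal also varied less. Pearson's r of the log2 signal per bp was 0.84 and Spearman's rho 0.80 over the 4335 pairs, whose regions overlap in sequence. Within length classes rho was lower, between 0.78 for pairs under 2 kb and 0.61 for pairs of 50 kb or longer. The SD of the log2 signal per bp was 0.48 (heart) and 0.81 (intestine) under 2 kb. At 50 kb or longer it was 0.26 (heart) and 0.39 (intestine). The SD of the centred ratio was 0.52 under 2 kb and 0.30 at 50 kb or longer, so the ratios of long pairs were closer together. How far the narrower range of signal sets the lower rho was not tested. The lengths of the paired regions were equal in 14.8% of pairs, longer in the heart in 45.2% and longer in the intestine in 40.0%. The centred ratio had an SD of 0.45. In 21 pairs, 0.484% of all, the heart was past 2-fold higher, and in 124 pairs, 2.86%, the intestine was. Without centring these shares were 0.0923% (heart higher) and 8.30% (intestine higher). With pairs taken by mutual largest overlap they were 4.24% (heart higher) and 6.30% (intestine higher) of 8814 pairs, so the imbalance between the organs depends on these choices. At most paired regions the marks of both organs were therefore within 2-fold of the common ratio. The intestine had the wider spread of signal. The 5th and 95th percentiles over the pairs were 0.329 and 1.12 signal per bp in the heart, and 0.347 and 2.07 in the intestine.

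The direction of the ratio went with the level of the mark. The pairs were divided into 5 groups of equal size by their mean percentile of signal per bp in both lists. These percentiles come from the same signals as the ratio. The SD of the log2 signal per bp over the pairs was 0.55 in the heart and 0.80 in the intestine. With the wider spread in the intestine, a ratio that falls with level is largely built in. The groups below describe that spread and are not a separate result. In the lowest group the median centred log2 ratio was 0.20 (interval 0.18 to 0.23), and 75.4% of pairs lay above 0. In the highest group it was -0.43 (interval -0.47 to -0.39), and 14.8% lay above 0. Of the 124 pairs past 2-fold higher in the intestine, 93 were in that highest group, where none was past 2-fold higher in the heart. Length moved with level, with a median heart length of 22.2 kb in the lowest group and 1.799 kb in the highest. The median ratio was -0.09 for pairs under 2 kb and 0.08 for pairs of 50 kb or longer, and 65 of the 124 were under 2 kb. The part of the lists' unstated scaling in this trend was not tested.

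Pairs with a class change leaned towards the organ in which they were super. The 112 pairs that were super in the heart and typical in the intestine had a median centred log2 ratio of 0.43 (interval 0.36 to 0.49), and 109 of them lay above 0. The 284 pairs that were typical in the heart and super in the intestine had a median of -0.31 (interval -0.35 to -0.26), and 41 lay above 0. The 420 pairs that were super in both had a median of -0.01 (interval -0.04 to 0.02), and the 3519 typical in both 0.02 (interval -0.00080 to 0.03). Both intervals hold 0. For pairs typical in both this is largely built in, because they are most of the 4335 pairs whose median was set to 0. Of the class changes, 2 of 112 were past 2-fold higher in the heart and 15 of 284 past 2-fold higher in the intestine, beside the 0.484% and 2.86% of all pairs. A super-enhancer by definition carries much of the mark, so these directions describe the classes. How the classes were divided off here is not given. Length moved with class as well, with 85.7% of the 112 pairs longer in the heart and 70.8% of the 284 longer in the intestine. In all, 3939 of the 4335 pairs had the same class in both organs.

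**Figure D3:**
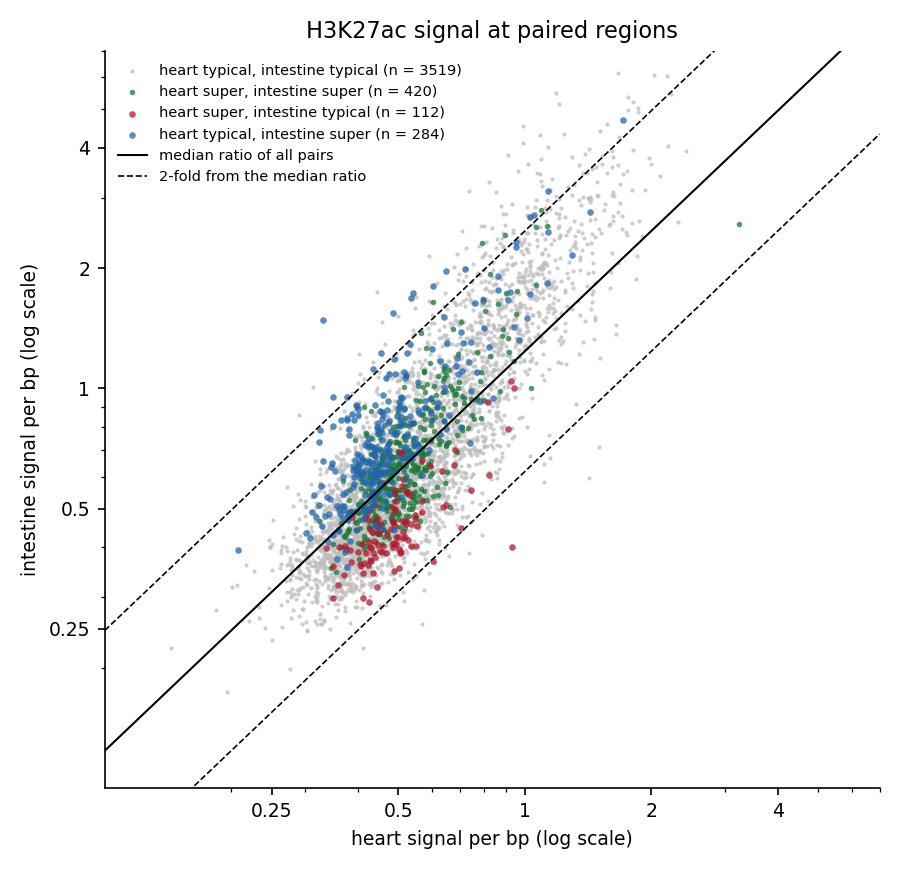
Signal per bp in the heart (horizontal) and the intestine (vertical) at the 4335 pairs, both on log scales, coloured by class in each organ; the solid line is the median ratio and the dashed lines are 2-fold from it. Most points lie between the dashed lines, with 21 past the line on the heart side and 124 past that on the intestine side.

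Among the 2476 pairs with both regions of at least 5 kb, 12 were past 2-fold higher in the heart and 24 in the intestine. Among these 2476 pairs the largest ratio towards the heart was at chr1:38596401-38616999, a single-locus super-enhancer of 20.6 kb with 0.931 signal per bp in the heart. In the intestine it was paired with a typical enhancer of 0.400 signal per bp. Its centred log2 ratio was 1.53, and it lies on the left of the heart super-enhancer chr1:38633201-38825199 described above. The second was chr22:12841601-12861799, typical in both organs, with 0.569 signal per bp in the heart and 0.257 in the intestine and a ratio of 1.45. The longest of the 10 highest was chr18:22961801-23127199, the heart super-enhancer named above, with 0.605 signal per bp in the heart, 0.369 in the intestine and a ratio of 1.02. Of the 10 highest, 10 overlapped an enhancer of the 10-month heart, 5 one of the brain and 2 one of the testis. Beside these stand 85.7% (10-month heart), 65.4% (brain) and 55.4% (testis) of all pairs. Without centring, 8 of the 10 were below 2-fold.

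Among pairs with both regions of at least 5 kb, the largest ratio towards the intestine was at chr17:34956801-34967799 in the heart. This typical enhancer, with 0.331 signal per bp, was paired with an intestine super-enhancer of 1.48 signal per bp. Its centred log2 ratio was -1.85. At chr3:36578201-36589399, typical in both, the values were 0.313 signal per bp in the heart and 1.01 in the intestine, a ratio of -1.38. Of the 10 lowest, 6 were typical in the heart and super in the intestine, and these intestine super-enhancers were 9.80 to 19.4 kb long. The pair at chr23:9943601-9972999 was super in both, with 0.791 signal per bp in the heart and 2.32 in the intestine. Of the heart regions of the 10 lowest pairs, 9 overlapped an enhancer of the 10-month heart, 7 one of the brain and 7 one of the testis. Over all pairs, with either region of a pair counted, the shares were 85.7% (10-month heart), 65.4% (brain) and 55.4% (testis).

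The pairs that were super in both organs and had the largest summed signal were all within 2-fold of the common ratio. At chr13:25058001-25413599, the longest region of the heart list with 356 kb and 51 loci, the paired intestine super-enhancer was 188 kb long. The signal per bp there was 0.544 in the heart and 0.534 in the intestine, a centred ratio of 0.34. At chr17:37858001-38049799 it was 0.453 in the heart and 0.750 in the intestine, over 192 kb and 265 kb, a ratio of -0.42. At chr8:21136801-21293799 it was 0.785 in the heart and 0.845 in the intestine, a ratio of 0.20. The 5 such pairs had ratios between -0.42 and 0.34.

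Both lists covered all 25 chromosomes. Overlap of the lists was taken per chromosome as the Jaccard index, base pairs listed in both organs over those listed in either. It ran between 39.0% on chromosome 9 and 51.5% on chromosome 22, with a median of 44.0%. The intestine list had more super-enhancers in all, 1145 against 850 in the heart, and more on 24 chromosomes. The count of chromosomes largely follows from the sizes of the lists. Chromosome 20 was the exception, with 43 in the heart and 35 in the intestine. The share of heart super-enhancers that were super in the intestine ran between 44.0% (11 of 25, chromosome 14) and 83.3% (20 of 24, chromosome 22), and was 79.2% (38 of 48) on chromosome 3. Chromosome 3 had 77 super-enhancers in the intestine and chromosome 22 had 44. The ratio of heart to intestine super-enhancers was 0.545 on chromosome 22 and 0.623 on chromosome 3, beside a median of 0.756 over all chromosomes. It was 0.610 on chromosome 19 (36 in the heart, 59 in the intestine) and 0.628 on chromosome 21 (27 in the heart, 43 in the intestine). Kept shares on 19 and 21 were 61.1% and 63.0%, beside a median of 60.7% over all chromosomes. How far the kept share goes with this ratio was not tested. The share of intestine super-enhancers that were super in the heart ran between 36.4% (chromosome 14) and 58.1% (chromosome 15).

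Chromosome 12 had the highest ratio of region counts, 599 in the heart and 488 in the intestine. It also had the highest private share in the heart, 37.2%, against 25.8% in the intestine. It held 4.21% of the 1-year heart regions and 3.24% of the intestine regions, and 3.62% of the 10-month heart regions. Chromosome 3 had the highest private share in the intestine, 36.2%, with 25.8% in the heart. The median centred log2 ratio per chromosome ran between -0.09 (chromosome 3) and 0.15 (chromosome 24), a small span beside the SD of 0.45 over pairs. Its interval lay above 0 on 2 chromosomes (7 and 18) and below 0 on 2 (3 and 11). The intervals of the 25 chromosomes were not corrected for their number. On 7, 3 and 11 the nearer end lay close to 0, at 0.014, -0.011 and -0.008. On chromosome 24 the interval held 0 (-0.05 to 0.20).

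**Figure D4:**
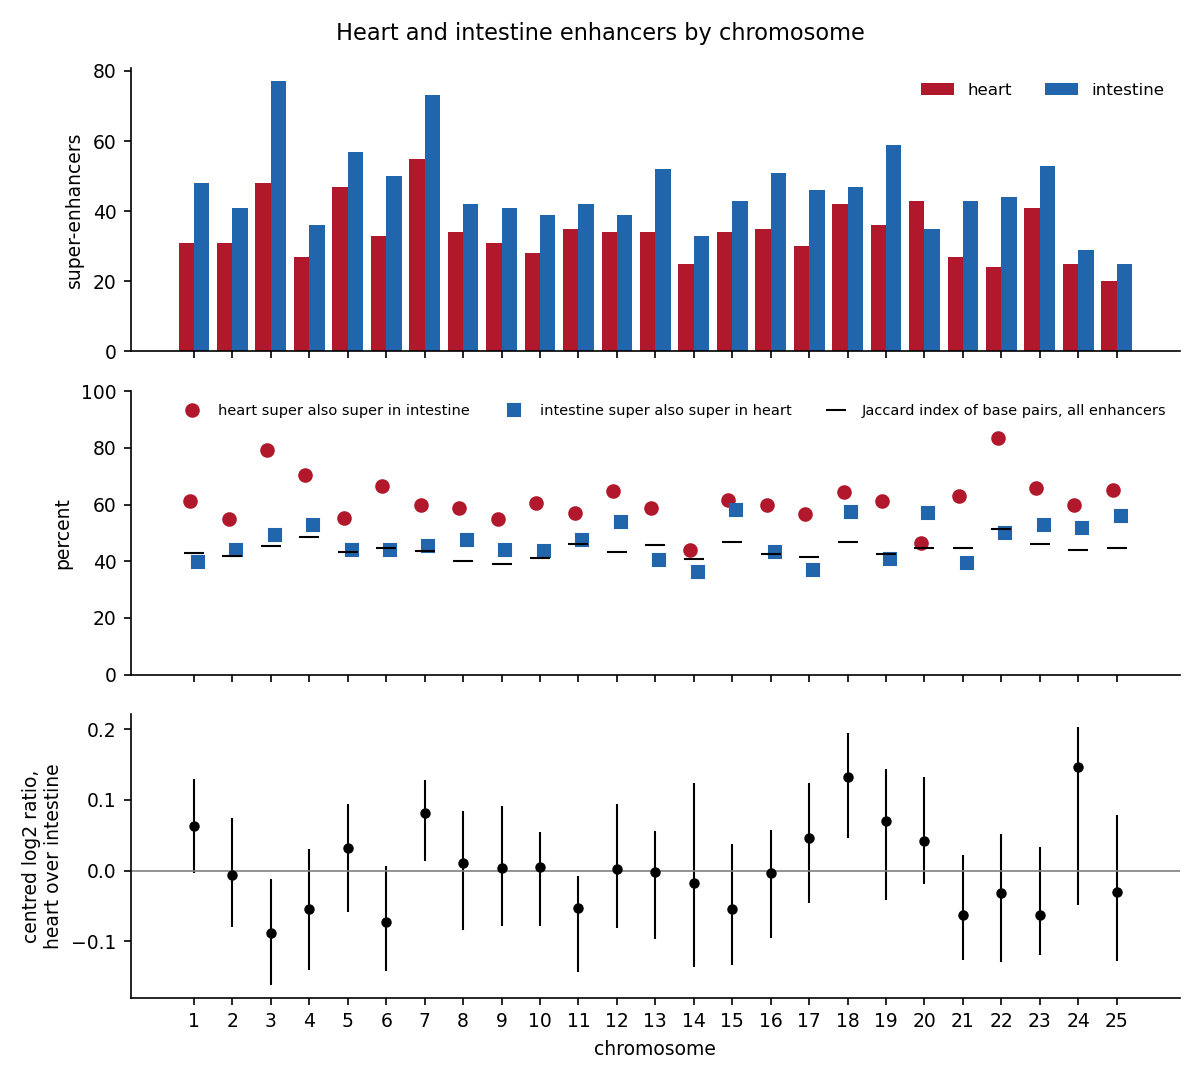
By chromosome, the number of super-enhancers in heart and intestine (top), the percent of each organ's super-enhancers that were also super in the other with the Jaccard index (middle), and the median centred log2 ratio of heart over intestine signal per bp with its 95% interval (bottom). Chromosome 20 is the one where the heart bar is taller, with 43 against 35.

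The 10-month lists gave positions that the matching had not used. The testis list covers 60.5 Mb, against 132.7 Mb in the 10-month heart and 171.1 Mb in the brain, so shares are best compared within 1 list. Overlap with them was counted only at 50% or more of the shorter of the pair. Of the private heart regions, 44.7% (interval 43.2% to 46.2%) overlapped an enhancer of the 10-month heart, 28.9% one of the brain and 13.0% one of the testis. Of the private intestine regions, 9.24% (interval 8.42% to 10.1%) overlapped one of the 10-month heart, 16.7% one of the brain and 9.62% one of the testis. The intervals of the 10-month heart shares did not overlap. Private intestine regions were, however, chosen to meet no region of the heart list used in the matching. A low share in another heart list is therefore partly built in, and how much was not tested. No second intestine list was used, so private intestine regions were not checked against a list of their own organ. None of the 3 lists held 37.9% of private heart regions and 70.8% of private intestine regions. The 3 lists include a heart list but no intestine list, so this contrast is partly built in too.

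Shared regions were found in the other lists more widely and about equally from either organ. The shared regions of the 2 organs overlap each other by definition, so near-equal shares are largely built in. Of the shared heart regions, 79.9% were in the 10-month heart, 58.5% in the brain and 46.3% in the testis. Of the shared intestine regions, 78.6% were in the 10-month heart, 56.5% in the brain and 44.3% in the testis. Shared and private regions also differed at matched length below 50 kb. For the intestine, part of the difference in the 10-month heart is built in by the rule for private regions, as above. At 2 to 5 kb, 40.9% of private and 71.6% of shared heart regions were in the 10-month heart, against 9.67% of private and 72.0% of shared intestine regions. At 20 to 50 kb the shares were 83.9% (private) and 95.3% (shared) for the heart, and 17.6% (private) and 90.3% (shared) for the intestine. At 50 kb or longer, 17 of 17 private and 1014 of 1015 shared heart regions were in the 10-month heart, so private and shared were alike there. In the intestine it was 2 of 7 private (interval 3.67% to 71.0%) and 807 of 821 shared regions.

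**Figure D5:**
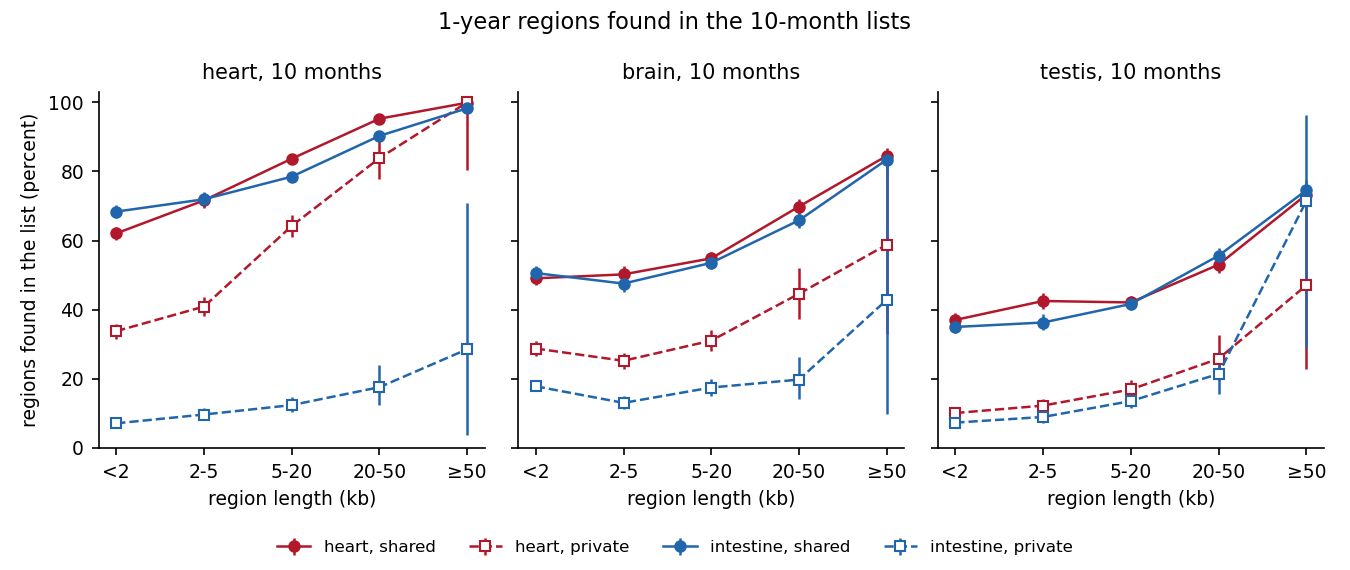
Percent of heart (red) and intestine (blue) regions that overlapped an enhancer of the 10-month heart, brain or testis list, by region length in kb, for shared (solid) and private (dashed) regions, with exact 95% intervals. Overlap means at least 50% of the shorter of the pair. In the 10-month heart panel the private intestine regions lie lowest, at 9.67% for 2 to 5 kb against 40.9% for private heart regions.

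The pairs past 2-fold were seen in the 10-month heart about as often as all pairs, in 19 of 21 on the heart side (90.5%) and 110 of 124 on the intestine side (88.7%), beside 85.7% of the 4335. In the testis list they were 6 of 21 on the heart side (28.6%) and 86 of 124 on the intestine side (69.4%), beside 55.4% of all pairs. In the brain list they were 12 of 21 (57.1%) and 87 of 124 (70.2%), beside 65.4%.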

How the data were processed

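H3K27ac was profiled by ChIP-seq, with input DNA, in hearts and intestines of 1-year-old zebrafish. The authors deposited, per organ, a super-enhancer and a typical-enhancer list whose value is a signal, a total over each region. For every 1-year region the signal divided by length had 4 decimals (14212 of 14212 and 15042 of 15042, within 0.001 after multiplication by 10000). Per the submitters' processing notes, build Zv9, SICER 1.1, bedtools 2.24.0, Bowtie2 2.1.0, SAMtools 0.1.8 and CASAVA were used, with no roles or order stated. How loci were joined, super-enhancers divided off, input used and replicates combined is not given in the sources used here.

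Overlaps, shares, ratios and intervals were computed in Python 3.11.15 (numpy 2.4.6, pandas 2.3.3, scipy 1.17.1, matplotlib 3.10.9), and the matching was tested on simulated data. All regions were kept. With 1 list of each kind per organ, no p-value was computed. Replicate numbers in the labels could not be used. Alternatives changed the overlap, the pairing, the centring, the super-enhancer list and the shortest region.

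Regions named are the 5 longest private ones per class and organ, the 10 highest and 10 lowest pair ratios with both regions at least 5 kb, the 5 strongest pairs super in both, and per organ the 5 strongest class changes and the 5 most divided super-enhancers; the text gives a selection. Members, rules and lists were chosen with earlier results of these data known. No genome or annotation of Zv9 was used, so no gene or sequence is given.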

Additional observations from a re-analysis of the deposited data

How the results depend on the processing

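Of 60 values recomputed under the alternatives, 22 moved by less than their spread and 38 moved further. Both medians near 0 changed sign, that of pairs typical in both without centring (below) and that of pairs super in both, which was 0.0019 when scaled by mean signal per covered bp. All 85 recomputed ratios of named pairs kept their direction. On the heart side 8 of 10 fell below 2-fold without centring (log2 ratios 0.71 to 0.93), 2 by mutual largest overlap (both 0.98) and 1 in regions of 2 kb or longer (0.998). On the intestine side 0 did. With any overlap of 1 bp, 69.4% of heart and 68.9% of intestine regions were shared. With 50% of both regions these were 30.5% (heart) and 28.8% (intestine). In regions of 2 kb or longer 62.3% (heart) and 65.1% (intestine) were shared and 34.3% of heart regions were private. With 50% of both regions, 49.4% of heart and 36.7% of intestine super-enhancers were super in the other organ, and with only the upper 50% of each super-enhancer list kept as super, 56.0% (heart) and 42.2% (intestine).

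Pairs past 2-fold higher in the heart were 0.282% with 80% of both regions, 4.24% by mutual largest overlap and 0.0923% without centring. Pairs past 2-fold higher in the intestine were 2.02%, 6.30% and 8.30% under the same settings, and 1.77% in regions of 2 kb or longer. By mutual largest overlap (8814 pairs) the median log2 ratio was 0.30 for heart super with intestine typical, -0.24 for heart typical with intestine super and -0.074 for super in both. Without centring these were 0.12, -0.62 and -0.32, and -0.29 for typical in both, which was 0.0352 with 80% of both regions and 0.0410 in regions of 2 kb or longer. With super-enhancers only, the chromosome Jaccard index ran between 23.6% and 42.8%. Of private heart regions, 46.8% (1 bp) and 53.0% (2 kb or longer) were in the 10-month heart, 30.7% (1 bp) in the brain and 15.2% (2 kb or longer) in the testis. Of private intestine regions, 11.5% (2 kb or longer) were in the 10-month heart, 17.9% (1 bp) and 15.5% (2 kb or longer) in the brain, and 10.8% (1 bp) and 12.1% (2 kb or longer) in the testis. The cause of these moves was not tested.

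No paired analysis was possible because the lists combine the replicates, and leaving out a replicate was not possible either. Depth is unknown, so a region missing from a list was not detected there and is not shown to lack the mark.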

Other observations

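Private regions were counted in runs, meaning neighbours in an organ's own list that are all private. These runs were chosen after their values were seen. Overlap of their regions with the other lists is again by at least 50% of the shorter of the pair. The heart had 2455 runs, of which 61.2% held a single region and 126 held 5 or more. The intestine had 2791 runs, of which 63.1% held a single region and 94 held 5 or more. The longest heart run by count was 14 regions at chr11:8862601-10494399, which covered 62.2 kb of 1632 kb, and 6 of the 14 overlapped an enhancer of the 10-month heart. The heart run with the most base pairs was chr16:46722601-47335399, with 5 regions and 334 kb, around the longest private super-enhancer. In it 4 of the 5 overlapped the 10-month heart and 4 the brain. At chr12:39132001-39498199 a heart run of 9 typical enhancers covered 167 kb, and 8 of the 9 overlapped the 10-month heart but 0 the brain or testis. Beside these counts stand 44.7% (10-month heart), 28.9% (brain) and 13.0% (testis) of all private heart regions.

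In the intestine the longest run by count was 12 regions at chr15:32673801-33738599, covering 58.8 kb, of which 0 overlapped the 10-month heart. The run with the most base pairs was chr13:45695201-46088199, with 6 regions and 164 kb, of which 2 overlapped the 10-month heart. At chr17:48438201-48909399 a run of 10 intestine regions covering 64.6 kb overlapped no enhancer of the 10-month heart, brain or testis to that extent. Of all private intestine regions, 9.24% overlapped the 10-month heart, and 70.8% overlapped none of the 3 lists. Low overlap of private intestine regions with a heart list is partly built in, as stated above.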
